A study of Drosophila melanogaster with 96 samples.

Results

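The genes of the proteasome, the protease complex that degrades ubiquitin-tagged proteins, were examined in fly heads at 3 temperatures and under light. Genes were taken by symbol: Prosalpha, Prosbeta, Rpn or Rpt followed by a digit. Of 17610 genes in the table, 48 matched, and 33 of them had at least 10 counts in at least 48 of the 96 libraries. The 33 genes comprise 7 alpha-ring subunits, 7 beta-ring subunits, 6 ATPases of the base, 4 other base subunits, 8 lid subunits and 1 paralog, Prosalpha1R.

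The libraries were made from polyadenylated RNA of heads of adult Drosophila melanogaster of the ISO1 strain, the inbred stock behind the fly reference genome, and all are labelled male. There were 3 groups in constant darkness, kept at 18 °C, 25 °C and 29 °C, and a further group at 25 °C under alternating light and darkness of 12 h each. No transgene, mutation or agent is named for any group. Sampling ran over day 4 and day 5, every 4 h from hour 0 to hour 20, and 2 replicates at each of these 12 time points gave 24 libraries per condition. The labels call the replicates biological but do not give the number of heads per library, the event from which days are counted or a collection batch, so an incubator cannot be told apart from its condition.

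The proteasome consists of a barrel-shaped core particle, in which protein cleavage takes place, and a regulatory particle that caps it. In the core, outer rings of alpha subunits gate the entry and inner rings of beta subunits hold the active sites, with Prosbeta1, Prosbeta2 and Prosbeta5 as the catalytic members. In the regulatory particle, the Rpt ATPases unfold substrates, Rpn1, Rpn10 and Rpn13 bind ubiquitin or its carriers, and the lid subunit Rpn11 removes the ubiquitin chain. In flies, the transcription factor cnc is known to raise the expression of proteasome genes, and light-dependent turnover of the clock protein TIM passes through the proteasome.

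Each library held between 17.3 and 34.7 M counts (M for 1e+06). Levels are given as CPM, counts scaled to a library total of 1e+06 after TMM scaling, which corrects for library composition. The nervous system markers elav, nSyb, Syt1 and brp and the photoreceptor markers were present in every library: the neuron marker sum was 1569 to 2561 CPM. For the sex label, markers of both sexes were present. The male-specific RNA lncRNA:roX1 was at 277 to 724 CPM, but the yolk protein genes Yp1, Yp2 and Yp3, which are known from female fat body and ovary, summed to 21593 to 71551 CPM. The sex makeup of the libraries was not tested further. Testis markers were close to 0, at 0.049 to 3.4 CPM for 5 genes summed.

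The 33 genes were expressed at moderate and similar levels. Their mean level over the 96 libraries ran from 47.5 CPM for Prosbeta3 to 124.6 CPM for the lid subunit Rpn6, and each had at least 10 counts in 96 of 96 libraries. The lowest count of any of them in any library was 643.5. The 15 genes that were left out are duplicated subunit genes with an R or T in their symbol, and their means lay between 0.016 and 0.31 CPM. The closest of them to the count minimum, Rpt3R, reached 10 counts in 22 libraries, and Rpt6R reached it in 4. All 33 kept genes were among the 10702 genes tested, and none of the 15 others was.

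One paralog passed. Prosalpha1R had 1.03 to 1.10 times the CPM of Prosalpha1 in every library, and the counts were not whole numbers in 100% and 99.0% of libraries for Prosalpha1 and Prosalpha1R. Their counts are therefore uncertain, since reads of near-identical copies can be divided between them in the counting. Of the 33 genes, 14 share exon bases with a gene on the opposite strand, at most 264 bases (Rpn9), and 19 share none.

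Per kb of exon, the classes overlapped in level. The catalytic subunit gene Prosbeta5 was the highest at 101.8 CPM per kb, and Rpn2, a scaffold of the base, was the lowest at 36.4 CPM per kb, 2.79 times less. The median gene of the beta ring was at 70.4 CPM per kb and that of the alpha ring, Prosalpha1R included, at 72.3. The median was 58.6 CPM per kb for the base ATPases, 44.5 for the other base subunits and 44.9 for the lid. Single genes ran from 51.9 to 101.8 CPM per kb in the beta ring, 48.5 to 83.7 in the alpha ring, 38.7 to 72.1 among the ATPases, 36.4 to 59.5 in the rest of the base and 37.9 to 64.1 in the lid. The ATPase gene Rpt6, at 72.1, thus lay above 4 of the 7 beta-ring genes. Some neighbours in this order did not differ beyond the spread between libraries. Prosalpha3 and Prosbeta2, at 83.6 and 82.1 CPM per kb over all libraries, are an example, with SDs of 8.22 and 9.20 CPM per kb in darkness at 25 °C.

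**Figure D1:**
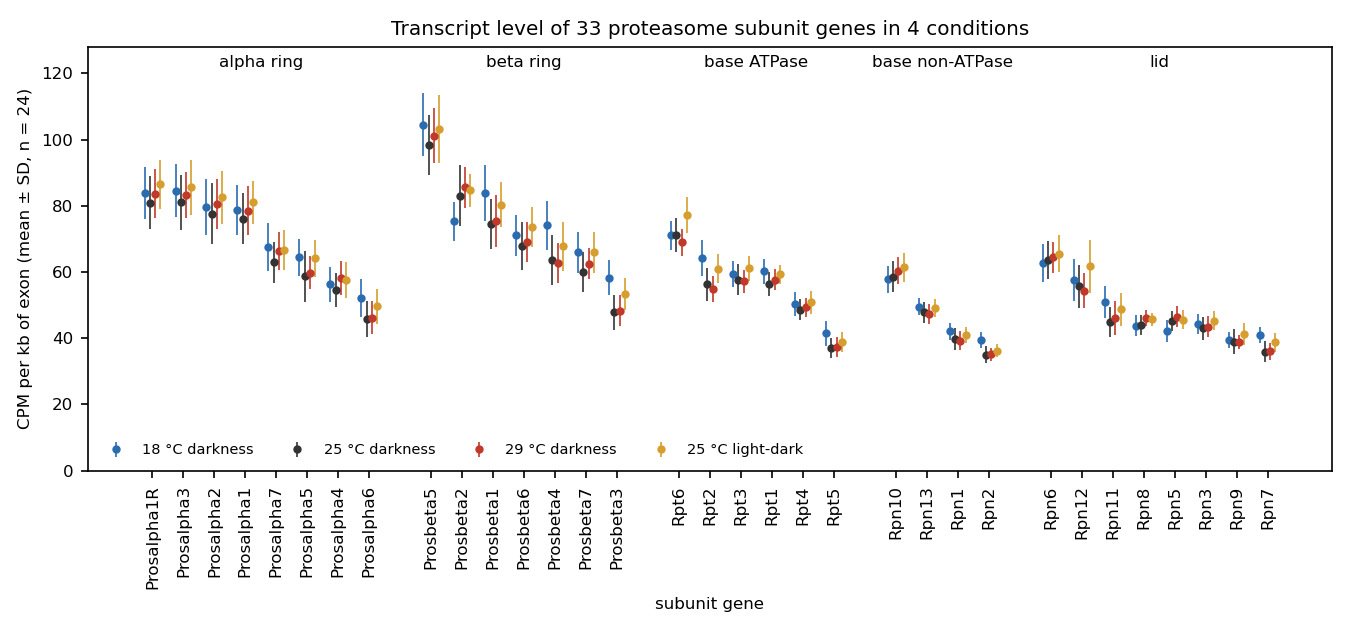
Level of each subunit gene in CPM per kb of exon (y axis) by gene (x axis), grouped by place in the complex and ordered by level. Points are means and bars SD over 24 libraries of a condition. Prosbeta5 stands above all others at 101.8 CPM per kb on average, and the colours of the 4 conditions lie close together for each gene.

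Libraries of 1 condition differed in a shared way. The 33 genes summed to 2284 to 2967 CPM at 18 °C (median 2634), 2191 to 2895 CPM at 25 °C in darkness (median 2485), 2235 to 2830 CPM at 29 °C (median 2508) and 2301 to 3040 CPM in light-dark (median 2651). The 4 ranges overlap almost fully. Replicate 2 had a higher sum than replicate 1 at 6, 9, 9 and 12 of 12 time points in that order of conditions. At hour 16 of day 4, for example, replicate 1 summed to 2284, 2191, 2235 and 2553 CPM, and replicate 2 to 2894, 2800, 2800 and 2803 CPM.

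The neuron markers moved the other way from library to library. Between the summed proteasome level and the summed neuron markers, Pearson's r was -0.96 at 18 °C, -0.92 at 25 °C in darkness, -0.93 at 29 °C and -0.94 in light-dark over 24 libraries each, and Spearman's rho was -0.94, -0.92, -0.83 and -0.90. Without the 2 libraries farthest from the median neuron level, r was -0.95, -0.91, -0.91 and -0.91. Within replicate 1 it was -0.96 to -0.98 and within replicate 2 it was -0.96 to -0.97. These are descriptions without a test, since both sums share the scaling of their library. Among other marker lists, r with the summed level was -0.54 to -0.83 for 5 photoreceptor genes and 0.29 to 0.70 for 4 head fat body genes. It was 0.39 to 0.58 for 3 glia genes and 0.14 to 0.53 for 4 muscle genes. Within single replicates, r ran from -0.22 to 0.63 for the glia genes and from -0.22 to 0.87 for the muscle genes. It ran from -0.27 to 0.81 for the fat body genes and from -0.27 to -0.90 for the photoreceptor genes. The RNA lncRNA:roX1 also ran against the summed level (r from -0.72 to -0.88) and the yolk protein genes ran with it (r from 0.36 to 0.71). In whole heads, fewer cells of a type and less RNA per cell cannot be told apart.

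**Figure D2:**
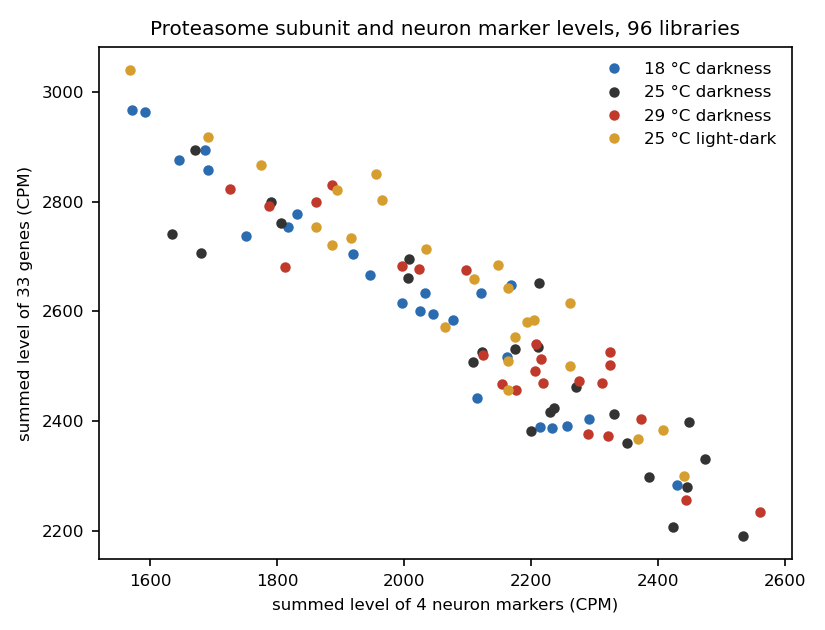
Summed level of the 33 genes (y axis, CPM) against the summed level of elav, nSyb, Syt1 and brp (x axis, CPM), with 1 point per library, coloured by condition. In each condition the points fall along a downward band, with r between -0.92 and -0.96.

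At 18 °C, 17 of the 33 genes differed from 25 °C in darkness, 15 of them higher and 2 lower. A gene is called where the edgeR quasi-likelihood test gave a Benjamini-Hochberg adjusted p under 0.05 over all 10702 genes. Over all genes tested, 66.8% were called in this comparison, 32.7% higher and 34.1% lower. The differences were small: the log2 ratio of 18 °C to 25 °C ran from -0.14 to 0.29, with a median of 0.061 against -0.0035 for all tested genes. In size without sign, the median was 0.084 for the 33 genes and 0.17 for all tested genes. In none of the 33 did the libraries of the groups lie fully apart, as they did for 4.63% of tested genes.

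The 3 largest rises at 18 °C were in the beta ring and the alpha ring. Prosbeta3, a non-catalytic beta subunit (FBgn0026380, on 3R:9005313-9006226, minus strand, in the BDGP6.54 annotation), ranged from 45.1 to 62.6 CPM at 18 °C with a median of 52.8, and from 34.1 to 51.7 CPM at 25 °C with a median of 43.8. The 18 °C libraries are mostly the higher ones, with an overlap between 45.1 and 51.7 CPM. The means were 53.3 ± 4.89 and 43.7 ± 4.75 CPM (SD, n = 24 each), a log2 ratio of 0.29 ± 0.040 (SE), which is 1.22-fold (edgeR adjusted p = 8.49e-10), and 18 °C was higher at 11 of 12 time points.

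Prosbeta4, also a non-catalytic subunit of the ring, was at 60.4 ± 6.06 CPM at 18 °C and 51.9 ± 6.16 CPM at 25 °C, a log2 ratio of 0.22 ± 0.044 (edgeR adjusted p = 7.43e-06). Its libraries ranged from 52.0 to 72.4 CPM at 18 °C and from 39.8 to 66.3 CPM at 25 °C, so most of the values overlap. Prosalpha6, a subunit of the outer ring, was at 55.9 ± 6.15 against 49.0 ± 5.90 CPM, a log2 ratio of 0.19 ± 0.046 (edgeR adjusted p = 1.75e-04). The ATPase gene Rpt2 and the lid subunit genes Rpn7 and Rpn11 came close behind at log2 ratios of 0.19, 0.19 and 0.18.

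Prosbeta2 and Rpn5 were the 2 genes called lower at 18 °C. The median log2 ratio was 0.14 in the beta ring and 0.033 in the lid. Prosbeta2 (FBgn0023174, on 3L:14999951-15001319, plus strand, BDGP6.54), which carries the trypsin-like site, ranged from 64.6 to 91.6 CPM at 18 °C with a median of 78.9, and from 71.1 to 102.4 CPM at 25 °C with a median of 85.2. The 18 °C libraries lie lower, with wide overlap, and the log2 ratio was -0.14 ± 0.033 (edgeR adjusted p = 1.55e-04), with 18 °C higher at 2 of 12 time points. Rpn5, a lid subunit with a PCI domain (FBgn0028690, on 3R:5789493-5791569, plus strand), was at 79.8 ± 6.28 CPM at 18 °C and 85.8 ± 5.73 CPM at 25 °C. Its log2 ratio was -0.10 ± 0.030 (edgeR adjusted p = 0.00173), with 18 °C higher at 1 of 12 time points.

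The other catalytic genes were higher at 18 °C. Prosbeta1, which carries the caspase-like site, ranged from 59.5 to 83.8 CPM (median 70.6) at 18 °C and from 52.9 to 76.4 CPM (median 63.1) at 25 °C, a log2 ratio of 0.17 ± 0.041 (edgeR adjusted p = 2.20e-04). Prosbeta5, which carries the chymotrypsin-like site, ranged from 102.5 to 138.7 CPM (median 116.5) and from 95.6 to 129.4 CPM (median 111.8), a log2 ratio of 0.087 ± 0.038 (edgeR adjusted p = 0.0377). Both overlap between the temperatures over most of their range.

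By class, 5 of 7 beta-ring genes were called higher at 18 °C and 1 lower. In the alpha ring, 3 of 8 were called higher (Prosalpha6, Prosalpha5 and Prosalpha7) and 0 lower. Of the 6 ATPase genes, Rpt2, Rpt5 and Rpt1 were called higher. Rpn2 and Rpn1, the large scaffold subunits of the base, were called higher, while the ubiquitin receptor genes Rpn10 and Rpn13 were not called. In the lid, Rpn7 and Rpn11 were called higher and Rpn5 lower, and the remaining 5 were not called.

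The calls changed with the days used and with the neuron markers in the model. On day 4 alone, 6 genes were called (4 higher, 2 lower), and on day 5 alone 22 were called, all higher. The median log2 ratio of the 33 genes was 0.014 on day 4, with 18 ratios above 0 and 15 below. It was 0.15 on day 5, with 31 above 0 and 2 below. Prosbeta2 and Rpn5 were the 2 called lower on day 4, and neither was called on day 5. The difference between the days was not tested. Prosbeta3, Rpn2, Rpn7 and Rpt2 were called higher with each other scaling, filter, test and set of model terms, on each day alone and without each replicate. Of the neuron markers, elav (log2 ratio -0.47), nSyb (-0.19) and Syt1 (-0.12) were called lower at 18 °C and brp (0.19) higher. Other marker lists also differed between the groups. The median sum at 18 °C was 737 CPM for the glia genes (581 to 869), against 496 CPM at 25 °C (444 to 591). It was 67193 against 84069 CPM for the photoreceptor genes (38903 to 76330 and 56545 to 93250), and 2294 against 2981 CPM for the muscle genes (1887 to 2558 and 2369 to 3744). For the male RNAs lncRNA:roX1 and lncRNA:roX2 it was 389 against 573 CPM (286 to 560 and 396 to 752). Within the photoreceptor list, Arr1 went the other way, with a median of 7928 CPM at 18 °C against 6935 CPM at 25 °C. The part of these 4 lists in the proteasome levels was not tested. When the mean log2 level of the 4 neuron markers was added to the model as a covariate, a fit chosen after seeing the data, 11 genes were called higher and 10 lower, and the median log2 ratio of the 33 genes was -0.012. Prosbeta3 (0.19), Prosbeta2 (-0.22) and Rpn5 (-0.17) kept their direction and call in that fit, while Prosbeta5 was at -0.0042 and not called. Here and below, the share of all genes called in such other fits is not given. Whether the changes in calls are particular to the 33 genes was not tested.

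**Figure D3:**
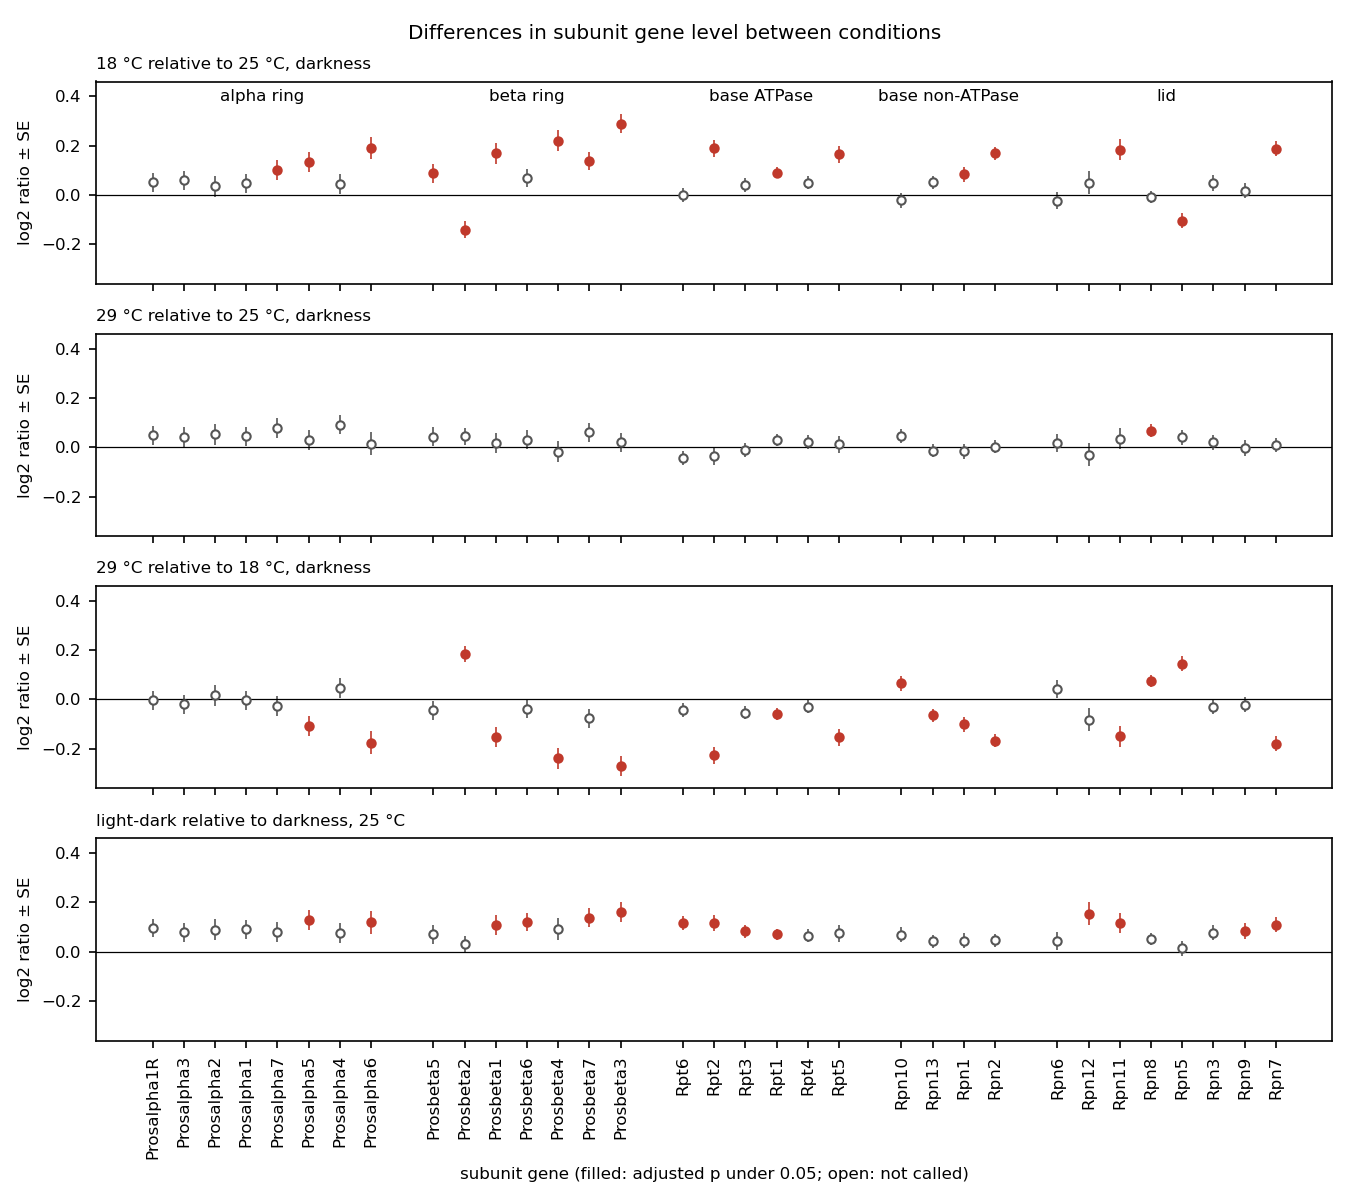
Log2 ratio of mean levels (y axis, ± SE) for each of the 33 genes (x axis, grouped by place in the complex) in the 4 comparisons. Filled points are called by the edgeR test and open points are not. At 18 °C relative to 25 °C, Prosbeta2 at -0.14 and Rpn5 at -0.10 stand below 0 while 15 genes are called above it, and in light-dark all 33 points lie above 0.

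Between 29 °C and 25 °C in darkness, 1 of the 33 genes was called, against 26.8% of all tested genes (13.8% higher and 13% lower). The gene was Rpn8, the partner of Rpn11 in the lid, at 70.7 ± 3.82 CPM at 29 °C and 67.5 ± 4.54 CPM at 25 °C, a log2 ratio of 0.068 ± 0.024 (edgeR adjusted p = 0.0304). Its libraries overlap, with 64.0 to 77.9 CPM at 29 °C and 60.6 to 77.0 CPM at 25 °C, and it was not called without replicate 1, without replicate 2, on day 4 alone or with 48 group means in the model. The 33 log2 ratios ran from -0.043 (Rpt6) to 0.092 (Prosalpha4), with a median of 0.021 against 0.00079 for all tested genes. Without sign, the median size was 0.031, against 0.070 for all tested genes. Groups lay fully apart for 0 of the 33 genes and 0.0654% of tested genes.

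No catalytic gene was called between 29 °C and 25 °C. The log2 ratio was 0.016 for Prosbeta1 with a 95% interval from -0.065 to 0.097, 0.045 for Prosbeta2 with an interval from -0.021 to 0.11, and 0.043 for Prosbeta5 with an interval from -0.032 to 0.12. With the neuron covariate, 7 of the 33 genes were called higher at 29 °C and 1 (Rpt6) lower, while none of the 4 neuron markers itself was called between 29 °C and 25 °C.

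Between 29 °C and 18 °C, 17 of the 33 genes were called, 13 lower at 29 °C and 4 higher, where 74.5% of all tested genes were called, 36.5% lower and 38% higher. This comparison shares its 18 °C libraries with the one above. Prosbeta3 was lowest relative to 18 °C, at 44.2 ± 4.18 CPM at 29 °C and 53.3 ± 4.89 CPM at 18 °C, a log2 ratio of -0.27 ± 0.040 (edgeR adjusted p = 4.45e-09). Prosbeta4 followed at -0.24 ± 0.044 and Rpt2 at -0.23 ± 0.034. Prosbeta3 and Rpt2 were higher at 29 °C at 0 of 12 time points, yet 37.99 to 51.1 CPM at 29 °C overlaps 45.1 to 62.6 CPM at 18 °C for Prosbeta3. Groups fully apart were found for 0 of the 33 genes and 11.2% of tested genes.

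The 4 genes that were higher at 29 °C than at 18 °C were Prosbeta2 at 0.18 ± 0.033, Rpn5 at 0.14 ± 0.030, Rpn8 at 0.076 ± 0.024 and the ubiquitin receptor gene Rpn10 at 0.066 ± 0.030. Prosbeta2 ranged from 78.9 to 103.3 CPM at 29 °C and from 64.6 to 91.6 CPM at 18 °C, and was higher at 29 °C at 12 of 12 time points (edgeR adjusted p = 8.10e-07). On day 4 alone, 9 genes were called (3 higher, 6 lower) and the median log2 ratio was -0.016. On day 5 alone, 2 were called higher and 14 lower, with a median of -0.080. Of the neuron markers, elav (log2 ratio 0.52) and nSyb (0.24) were called higher at 29 °C and brp (-0.25) lower. Syt1 (0.050) was not called. Median sums at 29 °C and 18 °C were 434 and 737 CPM for glia genes, and 3200 and 2294 CPM for muscle genes. For photoreceptor genes they were 85990 and 67193 CPM, with Arr1 going the other way (5958 and 7928 CPM). The part of these lists here was not tested. With the neuron covariate, 14 were called higher and 9 lower, and the median log2 ratio went from -0.044 to 0.027. In that fit Prosbeta3, Prosbeta4, Rpt2, Rpn7 and Rpn2 stayed lower and Prosbeta2 and Rpn5 stayed higher. Over the 3 temperatures, the mean level was lowest at 25 °C for 20 genes, fell with temperature for 8 and rose for 5, and for 0 it was highest at 25 °C. These are orders of means without a test. Between 25 °C and 29 °C only 1 of the 33 genes was called, so most of these orders rest on differences that were not called. The orders were not counted over all tested genes.

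**Figure D4:**
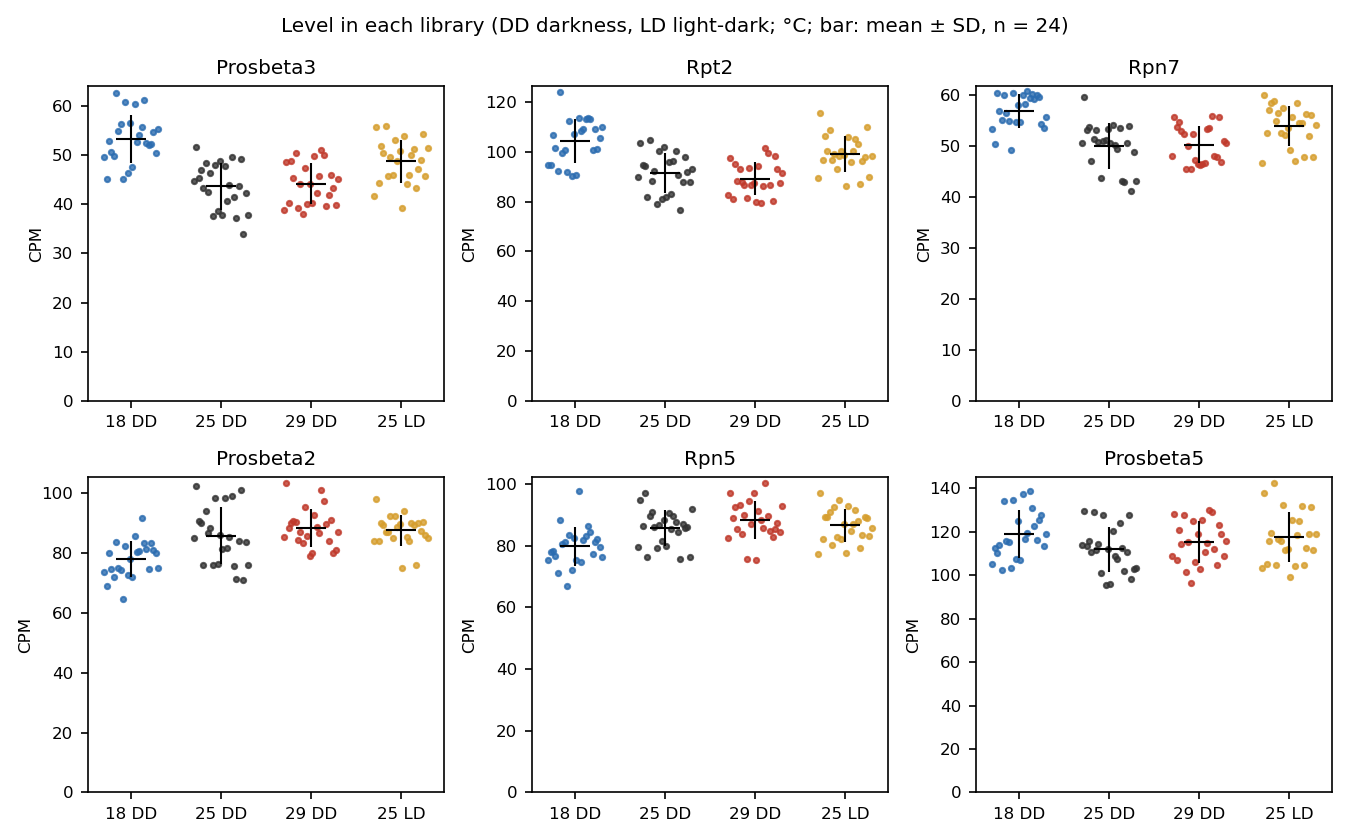
Level in CPM (y axis, from 0) of 6 genes in each library, by condition (x axis), with 24 points per condition in order of day, hour and replicate and the mean ± SD as a bar. The means of Prosbeta3, Rpt2 and Rpn7 are highest at 18 °C, and those of Prosbeta2 and Rpn5 are lowest there. For each of the 6 genes, Prosbeta5 included, the libraries of the conditions overlap.

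In light-dark, 14 of the 33 genes were called higher than in darkness at 25 °C and 0 lower, where 22.8% of all tested genes were called, 11.6% higher and 11.2% lower. All 33 log2 ratios were above 0, from 0.014 (Rpn5) to 0.16 (Prosbeta3), with a median of 0.082 against 0.00011 for all tested genes. The summed level was 2652 ± 183 CPM in light-dark and 2507 ± 194 CPM in darkness (SD, n = 24 each), 5.75% higher. Light-dark was higher at 12 of 12 time points when replicates were averaged. It was also higher in 22 of 24 libraries set against the one with the same day, hour and replicate number, although these labels were not taken as pairs. Groups fully apart were found for 0 of the 33 genes and 0.00934% of tested genes.

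Prosbeta3 had the largest rise in light, with 39.2 to 55.9 CPM in light-dark (median 49.3) and 34.1 to 51.7 CPM in darkness (median 43.8). The light-dark libraries are shifted up with wide overlap, at a log2 ratio of 0.16 ± 0.040 (edgeR adjusted p = 0.00169). Rpn12, a small lid subunit, ranged from 49.2 to 75.2 CPM in light-dark (median 62.4) and from 43.9 to 67.2 CPM in darkness (median 54.7), a log2 ratio of 0.15 ± 0.046 (edgeR adjusted p = 0.0098). Prosbeta7, a non-catalytic beta subunit, ranged from 66.4 to 95.97 CPM (median 80.6) and from 59.2 to 88.1 CPM (median 72.9), a log2 ratio of 0.14 ± 0.038 (edgeR adjusted p = 0.00426). The 3 genes were each higher at 12 of 12 time points.

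Across the complex, the calls in light were spread over the beta ring (4 of 7), the ATPases (4 of 6), the lid (4 of 8) and the alpha ring (2 of 8), with 0 of the 4 other base subunits. The ATPase genes called were Rpt6, Rpt2, Rpt3 and Rpt1, at log2 ratios from 0.070 to 0.12. Of the catalytic genes, Prosbeta1 was called at 0.11 ± 0.041 (edgeR adjusted p = 0.0441). Prosbeta5, at 0.070 with a 95% interval from -0.0043 to 0.15, and Prosbeta2, at 0.030 with an interval from -0.036 to 0.095, were not. In all, 9 of the genes called higher in light were also called higher at 18 °C, a count that shares the 25 °C darkness libraries on both sides. No such count was made over all tested genes, so a response common to light and cold was not tested.

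The count of calls in light changed with the libraries used. Without replicate 2 no gene was called and the median log2 ratio was 0.064, and without replicate 1 there were 10 calls and a median of 0.10. None of the 14 calls held through all of these changes of libraries. On day 4 alone 0 genes were called and on day 5 alone 4. The 33 ratios were above 0 in each of these subsets. The genes shift together from library to library, so their shared sign does not count as 33 separate observations. Of the neuron markers, elav was lower in light-dark (log2 ratio -0.20, edgeR adjusted p = 0.00432), and nSyb, Syt1 and brp were not called. The median photoreceptor sum was 66056 CPM in light-dark (32869 to 71025) against 84069 CPM in darkness, the male RNAs were at 457 CPM (342 to 622) against 573 CPM, and the glia genes at 550 CPM (445 to 673) against 496 CPM. Within the photoreceptor list the genes went different ways. The median of ninaE was 32479 against 54883 CPM, while Arr1 (9241 against 6935 CPM) and Arr2 (15063 against 14090 CPM) were higher in light-dark. The medians of trp (3363 against 3523 CPM) and ninaC (3517 against 3526 CPM) were close. Mitochondrial genes took a median of 6.75% of counts in light-dark (3.79 to 9.69%) and 5.89% in darkness (3.42 to 7.45%). Over 24 libraries each, this share ran with the summed proteasome level at r = 0.74 in light-dark and 0.35 in darkness. Within replicates 1 and 2, r was 0.31 and 0.71 in light-dark and 0.025 and 0.084 in darkness. The part of these lists and of the mitochondrial share in the light comparison was not tested. With the neuron covariate, 11 of the 14 calls remained, 30 of 33 ratios were above 0 and the median was 0.040.

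None of the 33 genes was called rhythmic in any condition. The test asked whether a 24 h cosine curve explains the level over the 6 hours. In light-dark, where 14.2% of all tested genes were called, 0 of the 33 were, and 0 had an unadjusted p under 0.05, against 25.1% of tested genes. In darkness, 0.196% of tested genes were called at 18 °C, 0.439% at 25 °C and 0.14% at 29 °C. At an unadjusted p under 0.05 there were 1, 0 and 0 of the 33 genes, against 5.2%, 8.02% and 5.81% of tested genes. DESeq2 also called 0 in each condition, as did edgeR with 6 free hour means in place of the curve.

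The fitted amplitudes (how far the peak of the curve lies above its mean, in log2) were small and close to their errors. The median amplitude of the 33 genes was 0.050 at 18 °C, 0.040 at 25 °C in darkness, 0.035 at 29 °C and 0.028 in light-dark, with a median SE of 0.036 in each. Over the tested genes at the level of these genes or above, the median amplitude was 0.047, 0.047, 0.044 and 0.063. The largest amplitude in light-dark was 0.061, for Rpn11.

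Among the genes with the smallest p, Rpn7 came first in 3 of the conditions. In light-dark it peaked at hour 9.21 ± 2.51 with an amplitude of 0.044 ± 0.029, and its edgeR adjusted p was 0.599. In darkness at 25 °C it peaked at hour 1.87 ± 1.59 with an amplitude of 0.071 ± 0.029 (edgeR adjusted p = 0.642), and at 29 °C at hour 6.09 ± 2.03 with 0.056 ± 0.029 (edgeR adjusted p = 0.904). Its hour means in darkness at 25 °C ran from 47.5 ± 5.96 CPM at hour 16 to 53.8 ± 4.29 CPM at hour 0 (SD, n = 4 each). In light-dark they ran from 51.9 ± 2.87 CPM at hour 20 to 56.6 ± 2.37 CPM at hour 8. Within single hours of these conditions the SD reached 5.96 and 6.10 CPM.

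The other genes with small p were Rpn8, Rpt1 and Prosalpha6 at 18 °C, Rpt3 and Rpn10 at 25 °C in darkness, Prosbeta2 and Prosbeta3 at 29 °C, and Rpn11 and Rpt4 in light-dark. Rpn8 at 18 °C had the smallest of all, with an unadjusted p of 0.0247 (edgeR adjusted p = 0.85), an amplitude of 0.068 ± 0.024 and a peak at hour 12.3 ± 1.37. The rhythm in light-dark was also compared with that in darkness at 25 °C: 0 of the 33 genes were called to differ, where 5.26% of all tested genes were, and 0 had an unadjusted p under 0.05, against 14%. Rpn7 (p = 0.0748), Rpt3 and Rpn9 had the smallest p (edgeR adjusted p = 0.445 for Rpn7). With the neuron covariate, Prosalpha6 was called rhythmic in light-dark, and Rpn7 and Rpt3 were called to differ in rhythm.

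**Figure D5:**
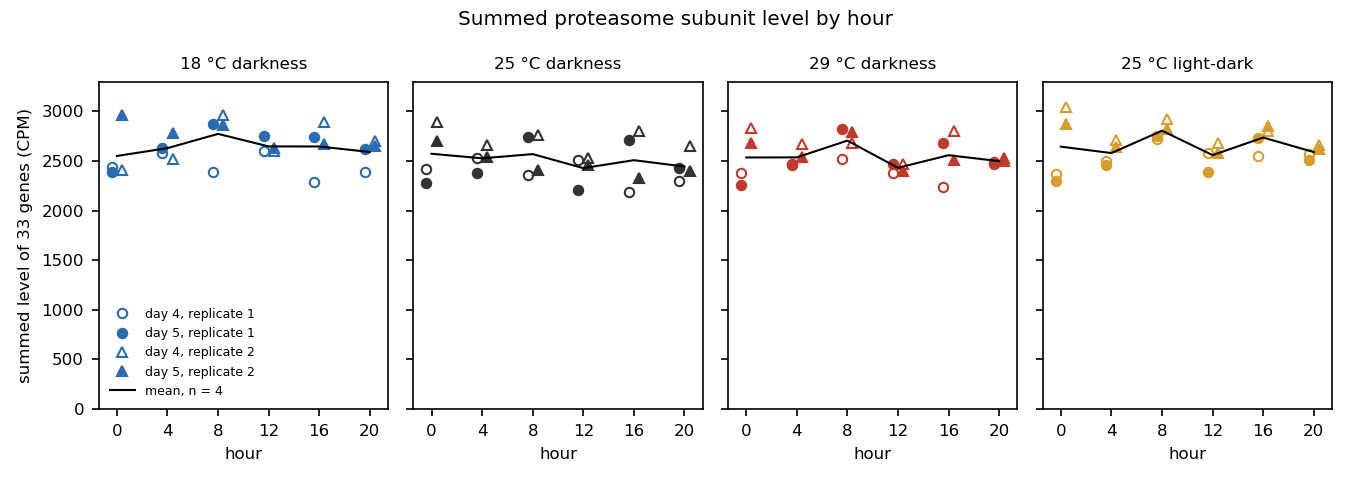
Summed level of the 33 genes (y axis, CPM, from 0) by hour of the day (x axis) in each condition. Symbols show replicate and day, and the line joins the means of the 4 libraries at an hour. The hour means stay between 2427 and 2804 CPM over all conditions, and the 4 light-dark libraries of hour 0 alone spread from 2301 to 3040 CPM.

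The summed level was not tested for a rhythm. In light-dark its hour means ran from 2558 ± 126 CPM at hour 12 to 2804 ± 87.2 CPM at hour 8 (SD, n = 4 each), and in darkness at 25 °C from 2427 ± 149 CPM at hour 12 to 2572 ± 276 CPM at hour 0. The 4 light-dark libraries of hour 8 (2722 to 2919 CPM) lay above all those of hours 4, 12 and 20, which reached 2715 CPM at most. The neuron marker sums of these hour 8 libraries were 1692 to 1894 CPM, against 2034 to 2408 CPM at hours 4, 12 and 20. Hour 8 was picked after seeing the values, and such a separation was not counted over all tested genes. In summed proteasome level, the hour 8 libraries overlapped those of hour 0 and of hour 16 (2553 to 2851 CPM). At 18 °C and 29 °C hour 8 was also the highest, at 2772 ± 261 and 2705 ± 136 CPM. At hour 0 of light-dark, the 4 libraries alone covered 2301 to 3040 CPM, the whole range of that condition.

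None of the 33 genes was called between day 4 and day 5. In darkness, over the 3 temperatures together, 0 were called against 3.62% of tested genes, and 2 (Rpn1 and Rpn2) had an unadjusted p under 0.05 against 18.1%. Their log2 ratios of day 5 to day 4 were 0.055 ± 0.025 and 0.044 ± 0.021, and Prosalpha6 followed at 0.065 ± 0.037. This test averages the temperatures, whose summed levels went different ways: 2564 ± 208 CPM on day 4 and 2713 ± 151 CPM on day 5 at 18 °C, 2550 ± 213 and 2465 ± 172 CPM at 25 °C, and 2536 ± 179 and 2550 ± 164 CPM at 29 °C (SD, n = 12 each). The difference in day shift between temperatures was not tested. In light-dark, 0 were called against 0.168% of tested genes, and 0 had an unadjusted p under 0.05 against 6.34%. Rpn7, Prosalpha4 and Rpt5 had the smallest p there, at log2 ratios of -0.060 ± 0.041, -0.064 ± 0.056 and -0.055 ± 0.050. Without replicate 2, 6 genes were called higher on day 5 in darkness, and DESeq2 called 0 in both comparisons.

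The spread between libraries of a condition was close to that of tested genes at their level or above, a set without an upper limit. The median SD of the log2 level over 24 libraries was 0.13 at 18 °C, 0.14 at 25 °C in darkness, 0.11 at 29 °C and 0.11 in light-dark. The 3615 tested genes with a mean at or above that of Prosbeta3 had medians of 0.12, 0.14, 0.11 and 0.13. In all, 8 of the 33 genes were called in none of the 4 level comparisons: Prosalpha1, Prosalpha1R, Prosalpha2, Prosalpha3, Prosalpha4, Rpn3, Rpn6 and Rpt4.

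Genes that work with the proteasome were listed apart: 22 genes for its assembly, regulators and control, for ubiquitin and its activation, and for substrate delivery. At 18 °C against 25 °C, 5 were called higher and 10 lower, with a median log2 ratio of -0.041, where 32.7% of all tested genes were higher and 34.1% lower. Npl4, a cofactor of the segregase TER94, was higher at 18 °C with a log2 ratio of 0.47 ± 0.027, and maf-S, the DNA-binding partner of cnc, was lower with -0.53 ± 0.029. Against 25 °C, the calls at 29 °C were 5 higher and 3 lower (13.8% and 13% of all tested genes), and the median was 0.032. The proteasome activator gene REG was higher there at 0.15 ± 0.031 and the polyubiquitin gene Ubi-p5E lower at -0.21 ± 0.025. From 18 °C to 29 °C, 11 were called higher and 5 lower (median 0.061), where 38% and 36.5% of all tested genes were, with maf-S at 0.61 ± 0.029 and Npl4 at -0.59 ± 0.027. In light, 3 were called higher and 2 lower (median 0.018), where 11.6% and 11.2% of all tested genes were, with Npl4 at 0.15 ± 0.027 and maf-S at -0.13 ± 0.029. Of the 22, 1 was called rhythmic in light-dark, where 14.2% of all tested genes were, and 0 in darkness, where 0.14% to 0.439% were.

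The COP9 signalosome is a complex related in build to the lid. Of its 8 genes at 18 °C against 25 °C, 3 were called higher and 3 lower (median log2 ratio -0.033), where 66.8% of all tested genes were called, with CSN8 at -0.32 ± 0.047 and alien at -0.23 ± 0.023. At 29 °C against 25 °C, 2 were called higher and 0 lower (median 0.042), where 13.8% and 13% of all tested genes were. The 2 were CSN8 at 0.15 ± 0.046 and CSN3 at 0.093 ± 0.027. From 18 °C to 29 °C, 5 were called higher and 3 lower, where 74.5% of all tested genes were called, and in light 1 was called higher (11.6% of all tested genes), CSN1b at 0.10 ± 0.021. The CCT chaperonin is a ring complex that folds proteins. Of its 8 genes, 4 were called higher and 2 lower at 18 °C against 25 °C (median 0.055), where 32.7% and 34.1% of all tested genes were, with CCT2 at 0.18 ± 0.028 and CCT8 at -0.24 ± 0.026. At 29 °C against 25 °C, 7 were called higher and 0 lower (median 0.14), where 13.8% and 13% of all tested genes were, with CCT8 at 0.22 ± 0.026 and CCT6 at 0.14 ± 0.025. From 18 °C to 29 °C, 4 were called higher and 0 lower (38% and 36.5% of all tested genes), and in light 0 were called (22.8% of all tested genes). Neither list was tested against the 33 genes.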

How the data were processed

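RNA was taken from fly heads in 96 libraries, and per the labels' protocols it was purified on RNeasy columns, treated with DNase and made into strand-specific poly(A) libraries (NEBNext Ultra II Directional). Per the submitters' processing notes, fastp 0.23.2, HISAT2 2.2.1 and featureCounts (Subread 2.0.8) were used. The genome build, the strand setting and the handling of reads with several matches are not given in the sources used here. The deposited table holds estimated counts per gene, not normalized by the authors, and 40.2% of nonzero values are not whole. They were rounded before each count test, since the tests had been planned for whole counts. Symbols, exon lengths and positions come from the BDGP6.54 annotation, whose match to the authors' build is unknown, and 17607 of 17610 identifiers were found there. All columns matched a sample, and promoter sequences were not analysed here.

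Counts were fitted with edgeR 4.0.16 (R 4.3.3): TMM scaling, filterByExpr over the 4 conditions (10702 genes), and 1 quasi-likelihood model in which each condition has its own mean, day shift and 24 h curve (cosine and sine) (16 columns, 80 residual degrees of freedom). Level tests are two-sided, and the call is at a Benjamini-Hochberg adjusted p of 0.05. The p-values measure the spread between libraries of a condition. Alternatives were DESeq2 1.42.0, other scalings and filters, other model terms, single days and single replicates, and 2 chosen after seeing the data: Prosalpha1 and Prosalpha1R summed, and the neuron markers as a covariate. Shares of all tested genes called are those of the main model only. The median library holds 21.1 M counts (M for 1e+06), so 1 CPM is 21.1 counts there, and this describes counting error only. Named genes are the catalytic 3, the 3 largest called rises and falls per comparison, the 3 smallest p per rhythm and day test, and those called against their class. Members, lists and tests were chosen with earlier results of these data known.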

Additional observations from a re-analysis of the deposited data

Results flagged for a closer look

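In 48 groups of 4 libraries of the same condition and hour (24 for the summed level of the 33 genes, 24 for Rpn7), 3 held a library far from the other 3 by Dixon's test. Chance flags about 1 group in 20. At 18 °C and hour 0, the library of day 5 replicate 2 had a summed level of 2963 CPM, with the other 3 between 2389 and 2443 CPM. For Rpn7, the library of day 4 replicate 1 at 18 °C and hour 8 was at 55.2 CPM with the others between 59.4 and 60.3 CPM, and that of day 5 replicate 1 at 29 °C and hour 4 was at 46.7 CPM with the others between 53.3 and 54.6 CPM.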

How the results depend on the processing

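Other scalings (DESeq2's size factors, DESeq2's own test), a looser filter and the sum of Prosalpha1 and Prosalpha1R left each count of called genes within 1.5 times. With 1 CPM in at least 48 libraries, 2 genes were called between 29 °C and 25 °C. With 48 group means, 0 were called between 29 °C and 25 °C and 8 in light. Day 4 alone gave 6 calls for 18 °C, 0 for 29 °C against 25 °C, 9 for 29 °C against 18 °C and 0 in light, and day 5 alone gave 4 in light. The replicate block (1 level per day, hour and replicate label) gave 4 calls between 29 °C and 25 °C and 28 in light, all higher; it changed the other counts by less than 1.5 times. Same-numbered libraries correlated above 0.1 in 10 to 15 of 24 pairs (lowest r -0.20) and matched their own label best in 1 to 8 of 24, so the labels were not taken as pairs; the mean deviation of replicate 1 still correlated between conditions at r from 0.53 to 0.63. Leaving out 1 replicate gave 14 to 16 calls for 18 °C, 0 and 0 for 29 °C against 25 °C, 13 to 15 for 29 °C against 18 °C, 0 to 10 in light and 0 to 6 for the days in darkness. The neuron covariate gave 8 calls for 29 °C against 25 °C, 1 rhythmic gene in light-dark and 2 with another rhythm. It turned Prosbeta5 to -0.0042 (18 °C against 25 °C) and 0.046 (29 °C against 18 °C), and Prosbeta2 to -0.010 in light. For 29 °C against 25 °C, Prosbeta1 was at -0.016 on day 4 alone, and between -0.011 and 0.037 without 1 replicate, and Prosbeta5 at -0.0010 on day 4 alone. The cause of these changes was not tested. Of 660 single-gene values, 550 kept direction and call, 102 lost the call, 2 gained one and 6 turned direction. The largest difference was 0.29 in log2, so these results concern shifts close to the spread between libraries, and depth was not varied.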
